A study of Mus musculus with 24 samples.

Results

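The lungs of 3 mice given A-DEP, a diesel exhaust particle sample, were compared with the lungs of 3 mice given saline. These 6 arrays, of 24 in the series, were chosen by sample title, as the arrays named for A-DEP or for saline with no ovalbumin. The A-DEP mice, females of the inbred strain BALB/C at 8 to 10 weeks of age, received 150 ug of particles into the nose on days 0 and 13. The saline mice were of the same strain, sex and age and received saline on the same days. All lungs were taken 18 hours after the second dose, and each frozen lung gave 1 RNA sample and 1 Affymetrix array. The labels give both groups as not sensitized. For comparison, 3 mice received 150 ug A-DEP together with 20 ug ovalbumin (OVA, an egg white protein used as a model allergen), 3 received OVA alone, and 3 each received 150 ug of N-DEP or C-DEP, particle samples that the series title calls chemically distinct. The mice with OVA are labelled as sensitized. The comparison asks what the particles alone did to lung gene expression.

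Inhaled soot is taken up by alveolar macrophages and touches the airway and alveolar epithelium. In the injured lung these cells release interleukin 1 family cytokines and CXC chemokines, which draw neutrophils from the blood, and epithelial cells make acute phase proteins, which are otherwise known from the liver. Organic compounds on soot can bind the aryl hydrocarbon receptor, which turns on cytochrome P450 genes, and reactive compounds can activate NRF2, which turns on antioxidant enzymes.

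Values below are log2 intensities of 1 probe set per gene, and differences are A-DEP minus saline on the log2 scale with their standard error. A gene is said to have passed, risen or fallen where its Benjamini-Hochberg adjusted p from limma, over 12393 genes, was under 0.05. The array medians of the 6 arrays lay between 72.5 and 74.0 intensity units, and with 3 arrays a group their number limits the precision. Lung identity was plain on all 6 arrays, with the surfactant gene Sftpc at 13.35 to 13.87 and the club cell gene Scgb1a1 at 13.91 to 14.15. Saline replicates 1 and 2 lay farther from their group mates than any other of the 24 arrays, with a median absolute distance of 0.160 each, against 0.0945 to 0.101 for the A-DEP arrays. The summed intensity of a fat marker list was 1717 to 2658 on the A-DEP arrays and 2133 to 3282 on the saline arrays, and all 10 measured markers were lower on average after A-DEP. The mean log2 level of that list differed by -0.50 (two-sided exact permutation p = 0.2, where 0.1 is the smallest possible). The mean log2 level of 22 heart muscle markers lay at 7.94 to 8.55 in A-DEP lungs and 7.97 to 8.61 in saline lungs. The part of fat and heart tissue in the results was not tested beyond the covariate fit given next.

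A-DEP was followed by higher expression of 144 genes and lower expression of 61, which is 1.16% and 0.492% of the genes tested and 1.65% in all. Of all 12393 differences 5824 were positive and 6569 negative. These shares are the background for every list count below. The lists were chosen with earlier results of these data known, so counts above the background may follow in part from that choice. 27 genes rose and 3 fell by at least 2-fold. The genes that rose most were acute phase proteins, neutrophil chemokines and markers, interleukin 1 family members and protease inhibitors, and those that fell included endothelial, proteoglycan and metabolic genes. The A-DEP arrays all lay above the saline arrays for 144 of the 144 higher genes and all below for 57 of the 61 lower ones. Over all genes 10.7% lay above and 8.94% below without overlap. The genes that passed were chosen on these same arrays, so their lack of overlap follows largely from that choice. These calls depended on single arrays. 8 genes passed without A-DEP replicate 3, 14 without saline replicate 1 and 34 without A-DEP replicate 1. 8 genes passed whichever array was left out, namely Orm1, Orm2, Il33, Chil1, Clec4d, Cstb, Timm10b and the thioredoxin gene Txn1, the last named after its values were seen. Every other call of A-DEP against saline given below was lost without A-DEP replicate 3. All 205 genes kept their sign in each of these fits, which was fixed in advance for the 201 whose arrays did not overlap. The median difference of the higher genes stayed between 0.58 and 0.69. With the fat and heart levels as covariates 3 genes passed, Orm1, Orm2 and Il33, all 205 kept their sign, and the median difference was 0.50 for the higher and -0.44 for the lower genes, against 0.65 and -0.52 without covariates.

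**Figure D1:**
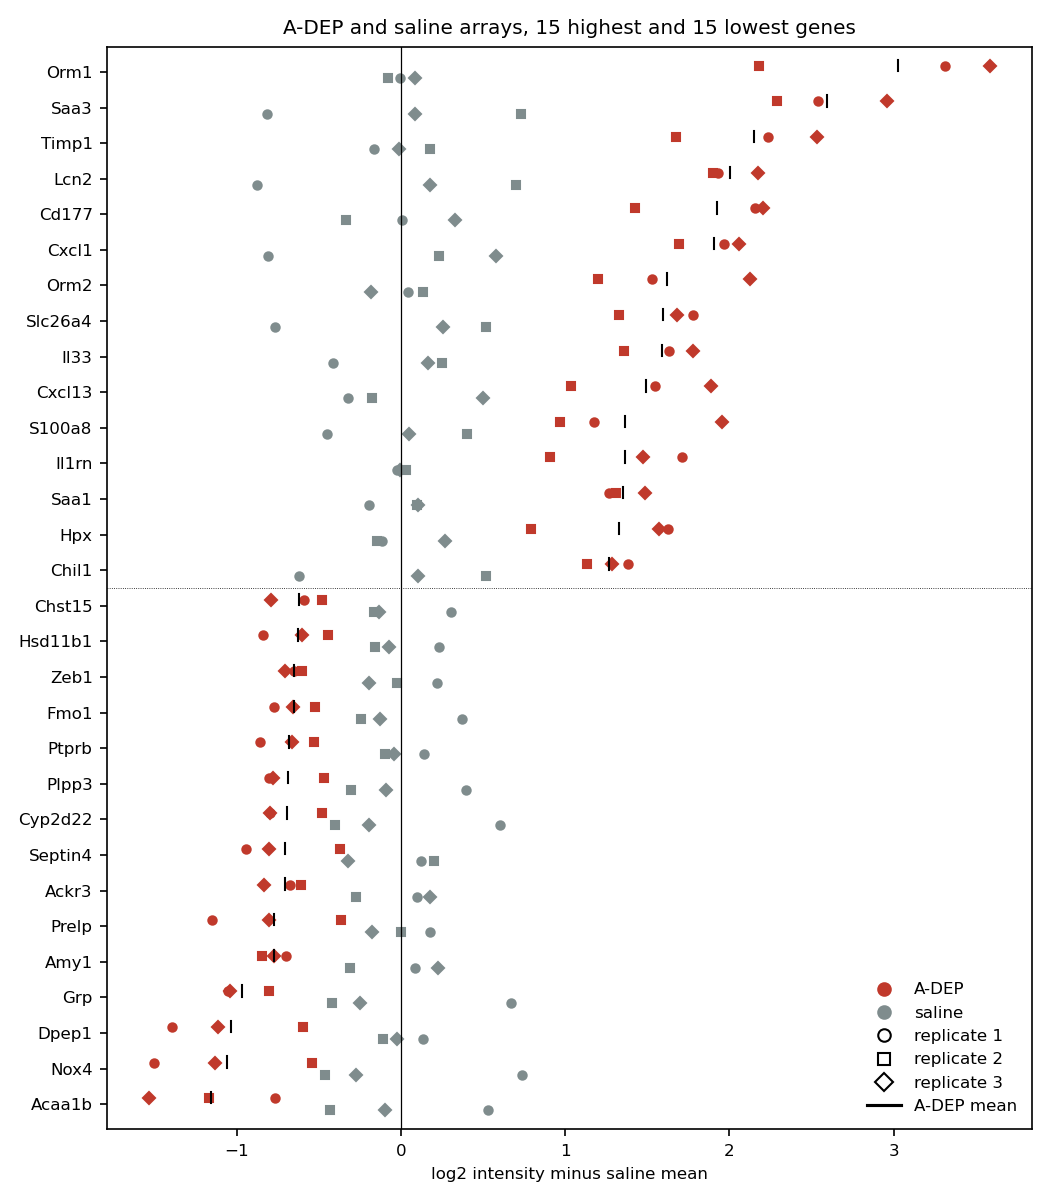
Log2 intensity of each A-DEP array (red) and saline array (grey), minus the saline mean of the gene, for the 15 highest and 15 lowest genes among those that passed without overlap of the arrays. Circles, squares and diamonds are replicates 1, 2 and 3, which were taken to name samples and not to pair them. The black tick is the A-DEP mean. Orm1 stands highest at 3.03 and Acaa1b lowest at -1.16.

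Acute phase proteins, which bind iron, heme or bacterial products in plasma and on mucosal surfaces, had the most calls of the 37 gene lists examined. Of 22 measured members 11 rose and 0 fell, against 1.16% of all genes that rose, and the list's median difference was 0.61, against -0.01 over all genes. Orm1 (Entrez gene 18405), which encodes the plasma carrier orosomucoid, stood at 8.15, 7.02 and 8.43 on the A-DEP arrays, against 4.83, 4.76 and 4.92 on the saline arrays. It was 8.14-fold higher after A-DEP, a difference of 3.03 ± 0.38 (adjusted p = 0.000435, limma). Its close paralogue Orm2 had 5.17, 4.84 and 5.77 in A-DEP lungs and 3.69, 3.78 and 3.46 in saline lungs, where it was dim, meaning below the 25th percentile of each saline array. The A-DEP arrays lay clear of the saline arrays for both genes, and A-DEP replicate 2 was the lowest of its group. Because the 2 genes are alike in sequence, their probe sets may share signal.

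Saa3, the serum amyloid A form that macrophages and epithelium make, had 11.67, 11.42 and 12.09 in A-DEP lungs and 8.31, 9.86 and 9.21 in saline lungs, a difference of 2.60 ± 0.49 (limma adjusted p = 0.0087). Saline replicate 1 was the lowest of the saline arrays here, and without it the difference was 2.19. Lcn2, which binds bacterial iron carriers, showed the same spread, with 11.62, 11.59 and 11.86 after A-DEP and 8.81, 10.39 and 9.86 after saline. Its difference of 2.00 became 1.56 without saline replicate 1. Saa1, the liver-type serum amyloid A, rose by 1.35 ± 0.25 but was dim in saline. The heme carrier Hpx rose by 1.33 ± 0.26 and Itih4, an acute phase inter-alpha-trypsin inhibitor chain, by 1.19 ± 0.23. The other 4 acute phase members that rose, given here after their values were seen, were Serpina3n (1.00 ± 0.24), Cd14 (0.95 ± 0.23), the copper carrier Cp (0.90 ± 0.21) and the endotoxin carrier Lbp (0.68 ± 0.14).

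The promoters of 2 acute phase genes are shown because liver acute phase genes are known to be driven by C/EBP factors. Each is the 150 bases before the start of the gene in RefSeq, build GRCm38.p6, read 5′ to 3′ on the strand of the gene, and the capitals mark the letters TTNNGCAA, searched on both strands. Orm2 lies on the plus strand at chr4:63362299-63362448 and Saa3 on the minus strand at chr7:46715677-46715826.
Orm2: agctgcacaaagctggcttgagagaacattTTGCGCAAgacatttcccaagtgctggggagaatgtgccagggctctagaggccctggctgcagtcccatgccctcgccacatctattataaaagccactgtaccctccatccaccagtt
Saa3: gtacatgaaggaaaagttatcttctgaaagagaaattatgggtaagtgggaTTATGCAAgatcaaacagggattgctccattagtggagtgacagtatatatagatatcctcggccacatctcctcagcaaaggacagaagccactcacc
The match begins 120 bases before the start in Orm2, where it reads the same on both strands, and 99 bases before it in Saa3. In windows from 250 bases before to 50 after the start, 6 of the 8 acute phase genes that rose and had a promoter entry held such a match, as did 6 of the 10 with an entry that did not pass, against 10.8% of all 32851 promoters and 11.1% of the 9887 measured genes with an entry. Both parts of the list exceeded these shares, so the excess describes the list and not the effect of A-DEP.

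Among the neutrophil chemokines, their receptors and growth factor, 4 of 9 measured members rose and 0 fell, and all 9 differences were positive. Cxcl1, the main neutrophil chemokine of the mouse lung, had 7.10, 6.83 and 7.20 in A-DEP lungs and 4.33, 5.37 and 5.72 in saline lungs. It was 3.75-fold higher, a difference of 1.91 ± 0.33 (limma adjusted p = 0.00694), and the 3 A-DEP arrays lay within a narrower range than the 3 saline arrays. Cxcl2, its relative, had 6.32, 5.33 and 5.33 after A-DEP and 4.19, 4.52 and 5.05 after saline. A-DEP replicate 1 stood alone in that gene, and without it the difference of 1.07 became 0.74. The lung-restricted chemokine Cxcl15 rose by 0.46 ± 0.12 and the interleukin 17 receptor Il17ra by 0.47 ± 0.11. Cxcl5, which epithelial cells make, had all A-DEP arrays above all saline arrays and just missed the threshold (1.25 ± 0.33, limma adjusted p = 0.0504).

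Cxcl1 and Cxcl2 lie side by side and are textbook targets of NF-kB, so their promoters are shown over the same 150 bases, with the match to the kappaB motif in capitals. Both are on the plus strand, Cxcl1 at chr5:90891095-90891244 and Cxcl2 at chr5:90903749-90903898.
Cxcl1: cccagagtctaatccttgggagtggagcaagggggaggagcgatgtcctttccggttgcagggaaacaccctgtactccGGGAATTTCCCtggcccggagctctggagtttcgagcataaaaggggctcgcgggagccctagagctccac
Cxcl2: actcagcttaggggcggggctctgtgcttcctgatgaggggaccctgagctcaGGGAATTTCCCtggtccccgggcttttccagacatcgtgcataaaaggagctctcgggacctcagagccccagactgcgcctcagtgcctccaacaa
The capitals are the same 11 letters in both genes and hold 2 overlapping matches, 1 on each strand. The kappaB motif was found in 2 of 3 neutrophil chemokine list genes that rose and had a promoter entry, in 0 of 3 that did not pass, in 8.46% of all promoters and in 12% of measured genes with an entry. Of all genes that passed in either direction and had an entry, 22 of 169 held it, which is 13% and near that share. Among acute phase genes that rose it was found in 0 of 8. Of 23 measured NF-kB and STAT3 regulators 2 rose, the NF-kB cofactor Nfkbiz (0.56 ± 0.12) and Stat3 itself (0.45 ± 0.11), and 20 of the 23 differences were positive, with a median of 0.19.

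Of 16 measured neutrophil markers 4 rose, 0 fell and 12 did not pass. The differences were positive for 12 and negative for 4, with a median of 0.43, and 9 of the 16 had all A-DEP arrays above all saline arrays, against 10.7% of all genes. The summed intensity of the list was 2579 to 3711 on the A-DEP arrays and 1680 to 2062 on the saline arrays. Cd177, a neutrophil surface protein, stood at 8.99, 8.26 and 9.04 after A-DEP and at 6.84, 6.50 and 7.16 after saline (1.93 ± 0.41, limma adjusted p = 0.0189). S100a8 had 7.43, 7.23 and 8.21 in A-DEP lungs and 5.81, 6.66 and 6.31 in saline lungs, and its calprotectin partner S100a9 rose by 1.18 ± 0.26. The lectin Clec4d rose by 1.07 ± 0.17 and was the list member that passed with any array left out. The granulocyte receptor Csf3r (0.78 ± 0.23, limma adjusted p = 0.0789) did not pass. In whole lung, more or fewer cells of a type and more or less RNA per cell cannot be told apart.

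Of the acute cytokines and receptors 4 of 20 rose and 0 fell. Il33, an alarmin stored in the nuclei of barrier cells and here also a member of the alveolar type 2 list, had 7.73, 7.46 and 7.88 in A-DEP lungs and 5.68, 6.35 and 6.26 in saline lungs. Its difference of 1.59 ± 0.22 (limma adjusted p = 0.000774) held with any array left out. Il1rn, the natural antagonist of the interleukin 1 receptor, had 7.17, 6.36 and 6.93 after A-DEP and 5.43, 5.49 and 5.45 after saline, a difference of 1.37 ± 0.26. Its 2 other probe sets differed by 0.19 and 0.46 and did not pass. Il1b itself rose by 0.96 ± 0.25 and Csf2, a growth factor for macrophages, by 0.72 ± 0.13, while the decoy receptor Il1r2 (0.85 ± 0.24) and Il18 (-0.44 ± 0.13) did not pass.

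Chemokines for monocytes and lymphocytes moved in both directions. 6 of 21 rose and 1 fell. The B cell chemokine Cxcl13 stood at 8.70, 8.18 and 9.04 in A-DEP lungs, against 6.83, 6.98 and 7.65 in saline lungs, a difference of 1.49 ± 0.33. Ccr1, a receptor on neutrophils and monocytes, rose by 1.23 ± 0.23 (0.30 by a second, dimmer probe set), and its ligands Ccl3 and Ccl9 by 1.10 ± 0.23 and 1.02 ± 0.24. The monocyte chemokine Ccl2 rose by 0.90 ± 0.22, as did its close relative Ccl12 (0.86 ± 0.21), with which it may share probe signal. Ackr3, a scavenging chemokine receptor found on endothelium, had 6.51, 6.58 and 6.35 after A-DEP and 7.28, 6.91 and 7.36 after saline, and fell by 0.71 ± 0.15. None of 22 monocyte and macrophage markers passed, although 16 differences were positive and the median was 0.30. Their highest members were Ctsk (0.75 ± 0.22) and Ccr2 (0.67 ± 0.20). The summed intensity of that list was 12062 to 13578 in A-DEP lungs and 11502 to 13489 in saline lungs and overlapped between the groups. Its mean log2 level did not overlap, at 7.30 to 7.39 in A-DEP lungs and 7.11 to 7.12 in saline lungs. For 10 of the 22 all A-DEP arrays lay above all saline arrays, against 10.7% of all genes. For 1 they all lay below, against 8.94%.

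Genes of allergic and interferon responses gave no calls. Of 20 eosinophil, mast cell and Th2 genes 0 passed in either direction, with a median of -0.08, and 11 of the 20 were dim in both groups. Il13, Il5, the eotaxin Ccl11 and the eosinophil peroxidase Epx differed by -0.08 ± 0.10, -0.16 ± 0.12, -0.14 ± 0.14 and -0.08 ± 0.11. None of 27 interferon response genes passed either, with Ifit1 highest at 0.55 ± 0.18, and none of 9 class II presentation genes or 21 lymphocyte markers did. In the list of chitinases and alternative activation genes 1 of 10 rose, Chil1, a secreted chitinase-like protein of macrophages and epithelium. It had 12.29, 12.04 and 12.19 in A-DEP lungs and 10.28, 11.43 and 11.01 in saline lungs (1.27 ± 0.21, limma adjusted p = 0.00342). Retnla, a product of alternatively activated macrophages and epithelium, had a larger but more variable difference of 1.50 ± 0.44, with 13.29, 12.68 and 13.10 after A-DEP and 11.02, 11.75 and 11.80 after saline, and did not pass (limma adjusted p = 0.0843).

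**Figure D2:**
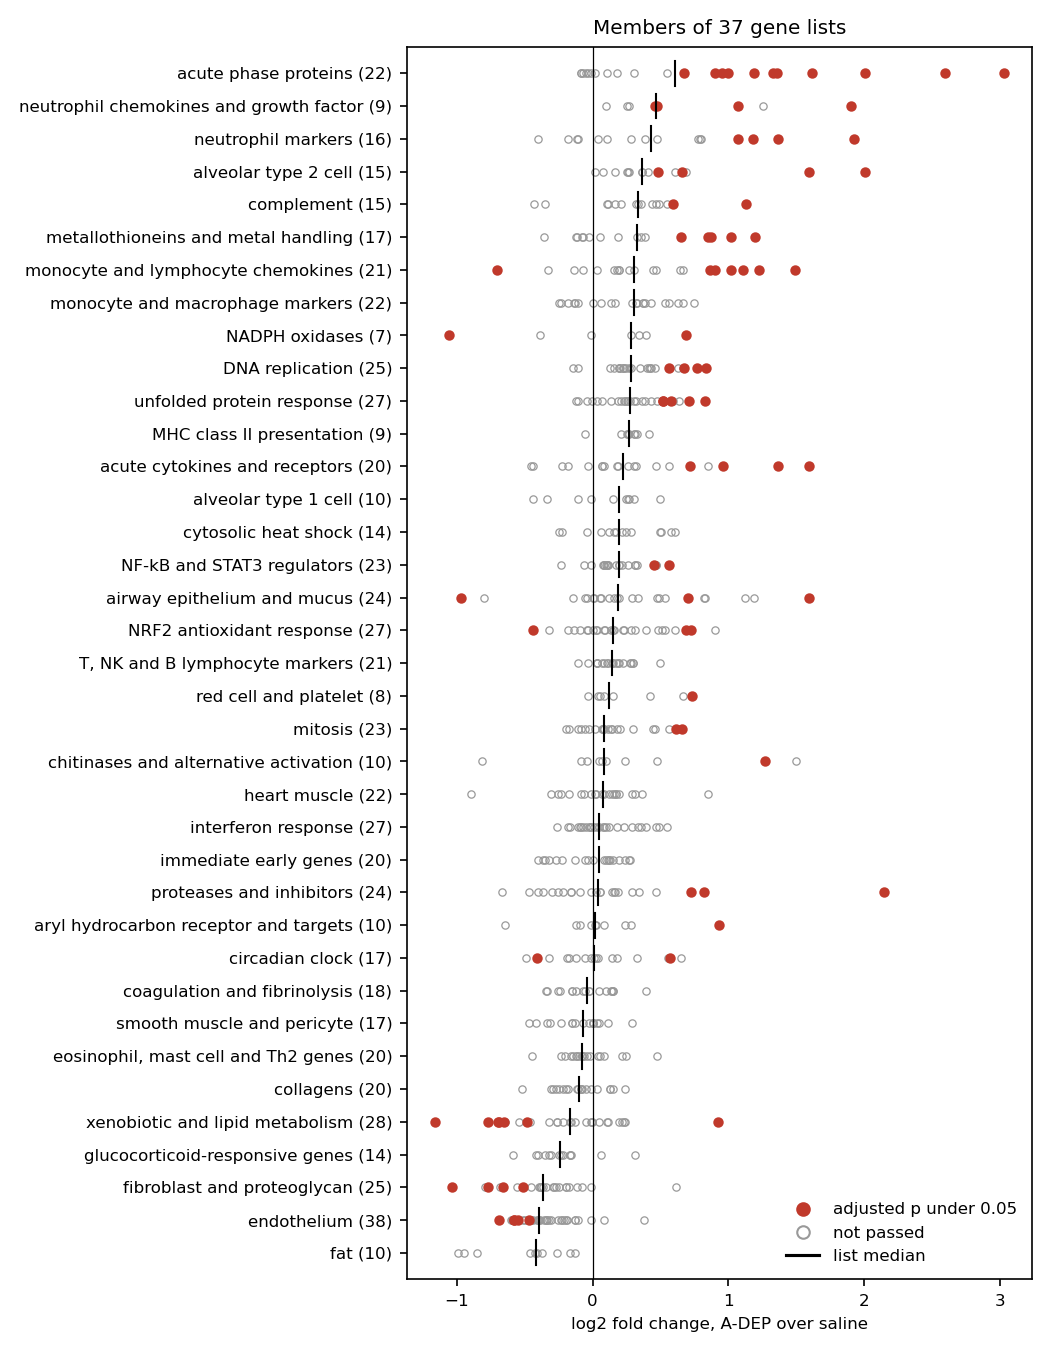
Log2 fold change of A-DEP over saline for each measured member of 37 gene lists, ordered by list median (black bar), with the number of measured members in brackets. Red points passed an adjusted p of 0.05 and open points did not. Acute phase proteins stand at the top with a median of 0.61, and endothelium, at -0.39, and fat, at -0.42, at the bottom.

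In the list of proteases and their inhibitors only inhibitors passed. Timp1, an inhibitor of matrix metalloproteinases, stood at 9.47, 8.91 and 9.77 in A-DEP lungs and 7.07, 7.41 and 7.23 in saline lungs, 4.43-fold higher (2.15 ± 0.35, limma adjusted p = 0.00342). It lost its call without A-DEP replicate 3 alone, where its difference was 1.96. The cathepsin inhibitor Cstb rose by 0.72 ± 0.11 and the neutrophil elastase inhibitor Slpi by 0.82 ± 0.17. These were the 3 that passed of 24 in the list, whose median was 0.04. In the complement list 2 of 15 rose, the alternative pathway factor Cfb (1.13 ± 0.25) and the classical pathway protease C1ra (0.59 ± 0.11). None of 18 coagulation genes passed.

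In the list of the aryl hydrocarbon receptor and its targets 1 of 10 rose, against 1.16% of all genes, with a median of 0.02. Cyp1b1, a classical target, had 7.50, 6.82 and 7.26 in A-DEP lungs, against 6.52, 5.78 and 6.48 in saline lungs, and rose by 0.93 ± 0.22 (limma adjusted p = 0.0282). Cyp1a1, the best known target, was lower rather than higher but did not pass (-0.65 ± 0.26, limma adjusted p = 0.212), and Nqo1 differed by 0.09 ± 0.14. The 2 other probe sets of Cyp1b1 differed by 0.00073 and 0.26.

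Of 27 NRF2 antioxidant genes 2 rose and 1 fell, against 1.16% and 0.492% of all genes. Gclc, the rate-limiting enzyme of glutathione synthesis, had 10.43, 10.12 and 10.24 after A-DEP and 9.24, 9.67 and 9.80 after saline, a rise of 0.69 ± 0.16. The mitochondrial superoxide dismutase Sod2, which is also an NF-kB target, rose by 0.73 ± 0.13, and the glutathione transferase Gstm1 fell by 0.44 ± 0.10. The heme oxygenase Hmox1 had 7.96, 7.85 and 7.80 in A-DEP lungs and 6.92, 7.58 and 7.30 in saline lungs, without overlap, and did not pass (0.60 ± 0.16, limma adjusted p = 0.0581). Among NADPH oxidases, which make superoxide or hydrogen peroxide, the phagocyte subunit Ncf4 rose by 0.69 ± 0.13 and Nox4, the oxidase of fibroblasts and endothelium, fell. Nox4 had 7.02, 7.98 and 7.39 in A-DEP lungs and 9.26, 8.06 and 8.25 in saline lungs. Its difference of -1.06 ± 0.26 became -0.69 without saline replicate 1, and its other probe set differed by -0.97.

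Genes of metal handling rose in 5 of 17 measured cases, against 1.16% of all genes, and fell in 0. Steap4, a metalloreductase, rose by 1.02 ± 0.22, the intestinal-type zinc importer Slc39a4 by 0.87 ± 0.16 and the transferrin receptor Tfrc by 0.85 ± 0.15. The metallothionein Mt2 had 8.72, 8.48 and 8.97 after A-DEP and 7.12, 7.88 and 7.57 after saline and barely passed (1.20 ± 0.31, limma adjusted p = 0.0497), and Mt1 (0.85 ± 0.27) did not. Hamp, the iron hormone hepcidin, had 6.70, 6.30 and 6.63 in A-DEP lungs and 5.81, 6.04 and 5.83 in saline lungs and rose by 0.65 ± 0.15.

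The unfolded protein response list holds chaperones of the endoplasmic reticulum and the sensors and transcription factors that control them. Of 27 measured members 5 rose, all of them made in or secreted through the endoplasmic reticulum, 0 fell and 22 did not pass. The differences were positive for 23, the median was 0.28, and 18 had all A-DEP arrays above all saline arrays, against 10.7% of all genes. Hspa5, the chaperone BiP that senses unfolded proteins, had 11.60, 11.63 and 11.73 in A-DEP lungs and 11.18, 10.86 and 11.36 in saline lungs (0.52 ± 0.12, limma adjusted p = 0.0302). The disulfide isomerases Pdia6 and Pdia3 rose by 0.71 ± 0.15 and 0.52 ± 0.11, the chaperone Hsp90b1 by 0.58 ± 0.14, and the secreted stress factor Manf by 0.82 ± 0.15. A second, dimmer probe set of Pdia6 differed by -0.05. The transducers of the response did not pass, with Xbp1 at -0.04, Atf4 at -0.0018 and Ern1 at -0.12, nor did the death-linked factor Ddit3 at 0.14. Cytosolic heat shock genes gave 0 calls of 14, with Hspd1 at 0.58 ± 0.17 and Hsp90aa1 at 0.61 ± 0.19.

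The endoplasmic reticulum stress element, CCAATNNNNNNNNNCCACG, is the textbook site through which ATF6 drives this response. The promoters of 4 chaperones that rose are shown over the 150 bases before their starts, with the element in capitals. Hspa5 lies at chr2:34771940-34772089, Pdia6 at chr12:17266439-17266588 and Pdia3 at chr2:121413752-121413901 on the plus strand, and Hsp90b1 at chr10:86705445-86705594 on the minus strand.
Hspa5: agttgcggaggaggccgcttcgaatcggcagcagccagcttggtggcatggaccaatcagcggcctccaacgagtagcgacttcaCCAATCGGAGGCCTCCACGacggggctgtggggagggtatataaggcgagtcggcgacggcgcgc
Pdia6: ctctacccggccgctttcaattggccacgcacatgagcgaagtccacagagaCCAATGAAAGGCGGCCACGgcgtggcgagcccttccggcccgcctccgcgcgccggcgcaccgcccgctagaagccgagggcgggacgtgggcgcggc
Hsp90b1: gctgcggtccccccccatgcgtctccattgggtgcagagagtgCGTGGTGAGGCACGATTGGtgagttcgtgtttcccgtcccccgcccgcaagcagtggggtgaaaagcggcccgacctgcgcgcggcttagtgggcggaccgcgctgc
Pdia3: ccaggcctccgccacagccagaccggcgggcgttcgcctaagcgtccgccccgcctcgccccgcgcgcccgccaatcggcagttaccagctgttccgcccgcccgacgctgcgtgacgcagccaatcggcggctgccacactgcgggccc
The element begins 65 bases before the start of Hspa5 and 98 before that of Pdia6, and in Hsp90b1 it is read on the opposite strand. Pdia3 holds no such letters in this window. Of 24 measured list members with a promoter entry 8 held the element within 250 bases before to 50 after the start, 3 of the 4 that rose and 5 of the 20 that did not pass, against 0.119% of all 32851 promoters and 0.182% of measured genes with an entry. Members that did not pass also exceeded these shares, so the excess describes the list and not the effect of A-DEP. The 4 genes that rose are too few to set against the 20.

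Replication genes rose in 4 of 25 measured cases, against 1.16% of all genes. Of the 25 differences 23 were positive, against 5824 of 12393 over all genes, with a median of 0.28. Mcm2, a subunit of the replicative helicase, had 7.10, 6.69 and 6.95 in A-DEP lungs and 5.98, 6.23 and 6.02 in saline lungs, a rise of 0.83 ± 0.17, while its other probe set differed by 0.24 and did not pass. Its partners Mcm5 and Mcm4 rose by 0.67 ± 0.15 and 0.57 ± 0.13, and the licensing factor Cdt1 by 0.77 ± 0.16. Other, dimmer probe sets of Cdt1 differed by 0.51 and -0.13. Of 23 mitosis genes 2 rose, Cdk1 (0.66 ± 0.16) and its subunit Cks2 (0.61 ± 0.15), and Mki67 (0.46 ± 0.17) did not pass.

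Alveolar type 2 cells make surfactant, and 4 of 15 of their markers rose, against 1.16% of all genes, with all 15 differences positive. Besides Lcn2 and Il33, which other lists also hold, the collectin Sftpd had 12.39, 12.40 and 12.40 on the A-DEP arrays, against 11.39, 11.80 and 12.02 on the saline arrays, and rose by 0.66 ± 0.14. The phosphate transporter Slc34a2 rose by 0.48 ± 0.12, while Sftpc differed by 0.02. Without saline replicate 1 the list's median of 0.36 was 0.16, and without saline replicate 2 it was 0.57. None of 10 alveolar type 1 markers passed. In the airway list 2 of 24 rose and 1 fell. Slc26a4, an exchanger of chloride and bicarbonate, had 7.54, 7.09 and 7.44 in A-DEP lungs and 4.99, 6.27 and 6.01 in saline lungs (1.59 ± 0.29), and the secretoglobin Scgb3a1 rose by 0.70 ± 0.18. The neuroendocrine peptide Grp had 5.32, 5.57 and 5.34 after A-DEP and 7.05, 5.95 and 6.13 after saline, and its difference of -0.97 ± 0.20 was -0.63 without saline replicate 1. The mucins Muc5ac (0.06 ± 0.18) and Muc5b (0.83 ± 0.28) did not pass, nor did the immunoglobulin transporter Pigr (1.12 ± 0.32) or the lectin Reg3g (1.19 ± 0.34).

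Of 38 measured endothelial genes 5 fell, 0 rose and 33 did not pass, against 0.492% of all genes that fell. The differences were negative for 36 of the 38, with a median of -0.39. For 22 of the 38 all A-DEP arrays lay below all saline arrays, against 8.94% of all genes. The summed intensity of the list was 27337 to 33444 on the A-DEP arrays and 39508 to 45304 on the saline arrays. Cldn5, the tight junction claudin of endothelium, had 10.81, 11.00 and 10.99 in A-DEP lungs and 11.58, 11.55 and 11.39 in saline lungs, a difference of -0.58 ± 0.12 (limma adjusted p = 0.0167). Vwf, the clotting factor stored in endothelium, had 9.95, 10.28 and 10.27 after A-DEP and 10.54, 10.75 and 10.86 after saline (-0.55 ± 0.11). The phosphatase Ptprb fell by 0.69 ± 0.13, the vesicle diaphragm protein Plvap by 0.58 ± 0.14 and the lymphatic growth factor receptor Flt4 by 0.47 ± 0.11. Cdh5, the defining cadherin of endothelium, differed by -0.22 and did not pass. The list median lay between -0.32 and -0.43 with each array left out, and no member passed without A-DEP replicate 1, without A-DEP replicate 3 or with the fat and heart covariates. The fat markers were lower on the same arrays, and their part in the endothelial result was not tested beyond that covariate fit.

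Of 25 fibroblast and proteoglycan genes 4 fell, against 0.492% of all genes, and 0 rose. Of their differences 24 were negative and the median was -0.37. Without saline replicate 1 the median was -0.24 and 0 members passed. Dpep1, a membrane dipeptidase that cleaves leukotrienes, had 7.34, 8.14 and 7.62 in A-DEP lungs and 8.87, 8.63 and 8.71 in saline lungs (-1.04 ± 0.23). The small leucine-rich proteoglycans Prelp and Omd fell by 0.77 ± 0.18 and 0.51 ± 0.12, and the basement membrane protein Npnt by 0.66 ± 0.15, with arrays that overlapped. Tnc, a matrix protein of wounds, went the other way without passing (0.61 ± 0.16). Collagens (0 of 20) and smooth muscle and pericyte genes (0 of 17) gave no calls, with medians of -0.10 and -0.07. Zeb1, a transcription factor of mesenchymal and endothelial cells, fell by 0.65 ± 0.12, while its other, dimmer probe set differed by -0.04.

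Of 28 genes of xenobiotic and lipid metabolism 6 fell and 1 rose, against 0.492% and 1.16% of all genes, with a median of -0.16. Acaa1b, a peroxisomal thiolase of fatty acid oxidation, had 5.51, 5.10 and 4.74 in A-DEP lungs and 6.80, 5.84 and 6.18 in saline lungs and fell by 1.16 ± 0.24 (limma adjusted p = 0.0157). The drug-metabolising enzymes Cyp2d22, Fmo1 and Cyp4b1 fell by 0.69 ± 0.16, 0.65 ± 0.15 and 0.48 ± 0.09, and the lipid phosphatase Plpp3 by 0.69 ± 0.17. Cyp2d22 differed by -0.39 without saline replicate 1. Amy1, an amylase, fell by 0.77 ± 0.13 but was dim in both groups. Vnn1, the pantetheinase vanin 1, was the member that rose (0.93 ± 0.18). Other genes among the 15 lowest were Septin4 (-0.71 ± 0.17), the cortisone reductase Hsd11b1 (-0.63 ± 0.16) and the sulfotransferase Chst15 (-0.62 ± 0.14). Of 17 clock genes Clock fell by 0.41 ± 0.10 and Bhlhe40 rose by 0.57 ± 0.11. The platelet chemokine Pf4 (0.73 ± 0.16) was the 1 of 8 red cell and platelet genes that passed, and 0 of 20 immediate early genes did. None of 14 glucocorticoid-responsive genes passed. Of these 14, 8 had all A-DEP arrays below all saline arrays, against 8.94% of all genes, and their median was -0.24.

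Other probe sets did not always follow. Of the 205 genes 95 had others on the array, 152 in all, of which 129 had the sign of the brightest probe set, 69 also had an unadjusted p under 0.05, and 14 passed. Besides those already stated, other probe sets differed by 0.59 for Cxcl13 and 1.22 for Hamp. They differed by 0.61 and 0.39 for Tfrc, 0.50 and 0.22 for Sod2, and 0.26 and 0.12 for Stat3. For Cp the brighter ones differed by 0.83, 1.02, 1.16 and 0.88, and the dimmer ones by 0.02 and -0.08. Those of Txn1 (-0.04) and Clock (-0.06) were near 0 or of the opposite sign. Npnt had -0.44, -0.45, -0.59 and -0.12, and Timm10b had 0.48, 0.25 and -0.08.

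**Figure D3:**
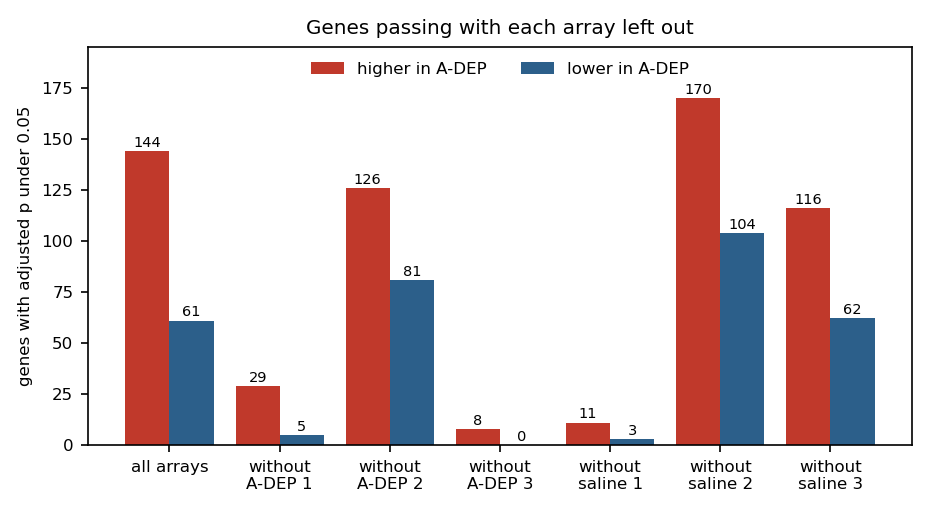
Number of genes higher (red) and lower (blue) after A-DEP at an adjusted p under 0.05, with all arrays and with each of the 6 arrays left out in turn. The counts of 144 and 61 become 8 and 0 without A-DEP replicate 3 and 11 and 3 without saline replicate 1.

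The same particles given with OVA allow a check on other arrays, since A-DEP with OVA against OVA shares no array with A-DEP against saline, although both were fitted in 1 model. With OVA, 78 genes rose and 7 fell, which is 0.629% and 0.0565% of genes and 0.686% in all. These 85 genes became 18 without OVA replicate 2, 52 without OVA replicate 3 and 54 without replicate 2 of A-DEP with OVA. Of the 144 genes higher after A-DEP alone 128 were higher with OVA, which is 88.9%, against 57.7% of all genes, and 29 passed. Of the 61 lower genes 36 were lower with OVA, which is 59.0%, against 42.3% of all genes, and 0 passed, 4 being lower at an unadjusted p under 0.05 and 3 higher. The median difference of the higher genes was 0.33 with OVA and 0.65 without, and that of the lower genes was -0.02 with OVA and -0.52 without. Since the genes were chosen for their size in A-DEP alone, a smaller value with OVA follows in part from that choice. The 29 genes that passed in both comparisons are 14.1% of the 205 and 34.1% of the 85.

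Slc26a4 had the largest difference with OVA, 2.77 ± 0.29, with 8.00, 9.18 and 8.64 in lungs given A-DEP with OVA and 6.37, 5.16 and 5.97 in lungs given OVA. Timp1 (2.59 ± 0.35), Saa3 (2.41 ± 0.49), Cd177 (2.13 ± 0.41), Lcn2 (1.98 ± 0.36), Orm1 (1.93 ± 0.38), Cxcl1 (1.93 ± 0.33) and Cxcl13 (1.90 ± 0.33) passed there too. Orm2 (0.65 ± 0.22), Il33 (0.64 ± 0.22) and S100a8 (0.51 ± 0.28) did not. Cldn5 differed by 0.27 ± 0.12 with OVA, Vwf by -0.01 ± 0.11 and Ptprb by 0.02 ± 0.13, and the endothelial list median was 0.05. The difference between the 2 effects was tested directly. It passed for 3 genes of 12393, which is 0.0242%, with 1292 at an unadjusted p under 0.05, and for 1 of the 205, the mitochondrial import gene Timm10b. The count was 1 in most fits that left out an array, with the eotaxin gene Ccl11 passing, and 19 without replicate 3 of A-DEP with OVA. Timm10b had 8.08, 8.30 and 8.27 after A-DEP and 7.72, 7.32 and 7.52 after saline, but 8.04, 7.95 and 8.03 after A-DEP with OVA and 8.18, 8.17 and 7.98 after OVA. For Cldn5 this difference was 0.85 (adjusted p = 0.0928, limma), for Orm2 -0.97 (adjusted p = 0.314) and for Il33 -0.95 (adjusted p = 0.314).

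**Figure D4:**
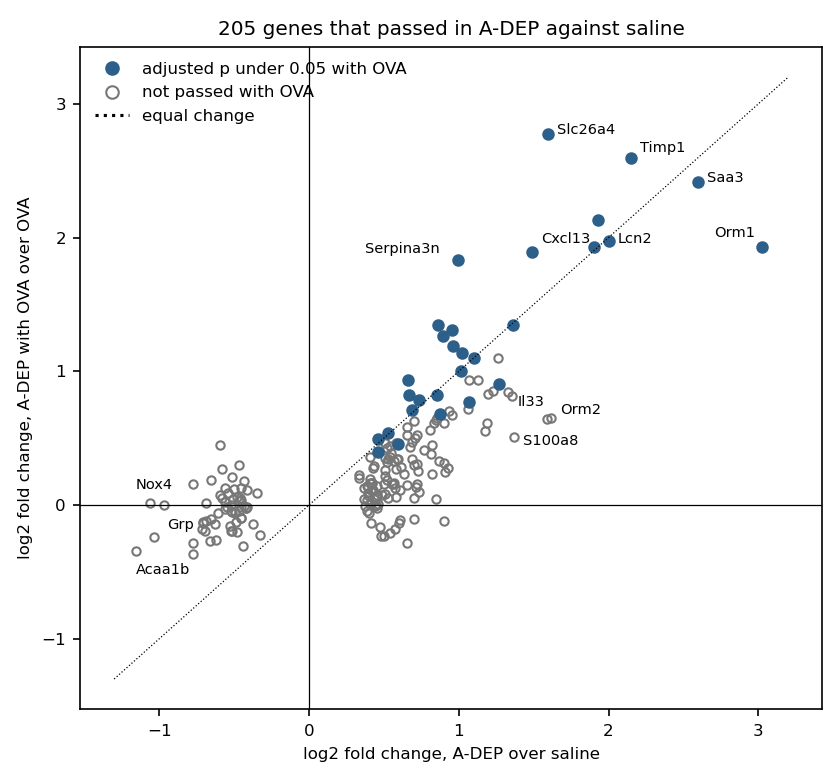
Each of the 205 genes that passed in A-DEP against saline, by its log2 fold change there (horizontal) and its log2 fold change in A-DEP with OVA against OVA (vertical), with the dotted line at equal change. Filled points passed an adjusted p of 0.05 with OVA. Most higher genes lie above 0 on the vertical axis and below the dotted line, and the lower genes scatter around 0.

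Few genes separated A-DEP from the other particles given without OVA. 1 gene differed between A-DEP and N-DEP lungs, which is 0.00807%, with 565 at an unadjusted p under 0.05, and 0 differed between A-DEP and C-DEP lungs by limma, with 828 at an unadjusted p under 0.05. A p that misses the threshold does not show that the particles act alike. The 1 gene was Vnn1, with 6.21, 6.40 and 6.87 in A-DEP lungs and 7.28, 7.74 and 7.86 in N-DEP lungs, a difference of -1.14 ± 0.18 (limma adjusted p = 0.0199) that did not pass without A-DEP replicate 1, A-DEP replicate 2, N-DEP replicate 2 or N-DEP replicate 3. Its C-DEP arrays, at 6.88, 6.82 and 7.03, overlapped the A-DEP arrays and lay below the N-DEP arrays. The 3 smallest p-values against C-DEP belonged to the cardiac actin Actc1 (0.66 ± 0.15), the glycosyltransferase B3gnt5 (0.53 ± 0.12) and Rpap2 (0.36 ± 0.08), each with an adjusted p of 0.423 by limma. Each particle was also set against the same 3 saline arrays, so the following values are given side by side without a comparison. Orm1 differed from saline by 3.03 after A-DEP, 3.00 after N-DEP and 2.87 after C-DEP, Cxcl1 by 1.91, 2.38 and 2.25, and Il33 by 1.59, 1.66 and 1.40. Cldn5 differed by -0.58, -0.35 and -0.27, and the endothelial list median was -0.39, -0.23 and -0.18. Hamp differed by 0.65 after A-DEP, -0.03 after N-DEP and 0.23 after C-DEP, and its direct difference between A-DEP and N-DEP was 0.68 ± 0.15 (limma adjusted p = 0.415).

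**Figure D5:**
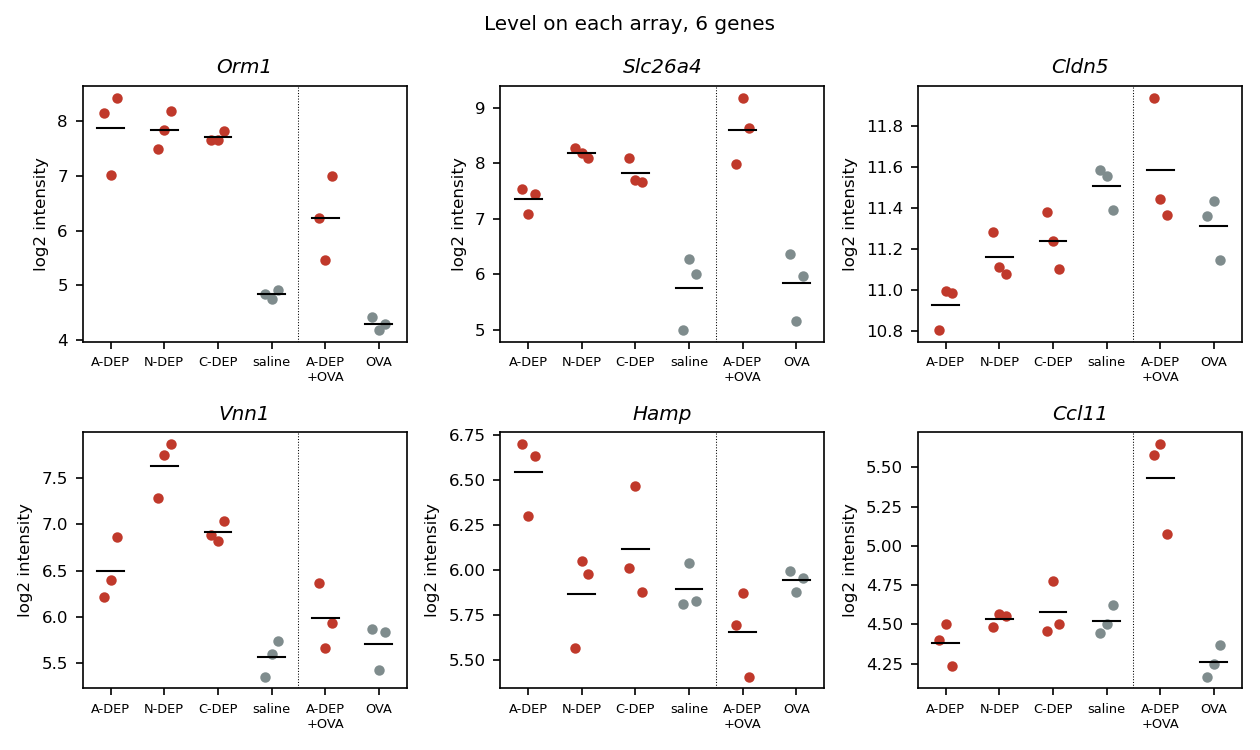
Log2 intensity of 6 genes on each array, with a bar at the group mean of 3 arrays. Red points are particle groups and grey points the saline and OVA groups, and the dotted line parts mice without OVA (left) from mice with OVA (right). Vnn1 lies lower in A-DEP than in N-DEP lungs, and Ccl11 is raised in lungs given A-DEP with OVA but not in lungs given A-DEP alone.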

How the data were processed

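Lung RNA was measured on 1-colour Affymetrix arrays from 2 ug total RNA, 1 mouse per array, per the labels' protocols. The deposited intensity values per probe set were normalized by the authors with RMA, per the submitters' processing notes, and its version is not given in the sources used here. They ran from 5.98 to 18195.5, so they were taken as linear and log2 was computed. Of 22690 probe sets, 64 were controls, 20380 had 1 gene symbol, 691 several and 1555 none, and only the first kind was named. The probe set with the highest mean over 24 arrays stood for each of 12393 genes (4956 had several), and 12369 of these genes stood in the RefSeq table. Signal over background was not analysed here, so dim genes may not lie above it.

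limma 3.58.1 (R 4.3.3) fitted 8 group means to 24 arrays (16 residual and 8.16 prior degrees of freedom), with eBayes without trend, two-sided tests and Benjamini-Hochberg adjustment within each comparison. The comparisons were A-DEP against saline, A-DEP with OVA against OVA, the difference of these, and A-DEP against N-DEP and C-DEP. The 3 arrays of a group are 3 mice, per the series' design text. The genes named are the 15 highest and 15 lowest past the threshold without overlap, the members of lowest p in each of 37 lists, at most 6 a list (765 entries, 695 measured), 5 per direction in the other comparisons or the 3 smallest p, and 16 fixed genes. The comparison, lists and members were chosen with earlier results of these data known. The highest correlation of 2 arrays was 0.996 and at most 0.0353% of values were identical, so no array was taken for a copy. The scripts were tested on simulated data. Alternatives were other probe sets, a filter on dim genes (10198 genes kept), quantile normalization, centring on the 75th percentile, array weights, a trended robust variance, a fit on fewer groups, blocking on the replicate number, covariates for RNA quality or for heart and fat levels, and each array left out. Promoters came from RefSeq, GRCm38.p6. Python 3.11.15, numpy 2.4.6, pandas 2.3.3 and matplotlib 3.10.9 were used.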

Additional observations from a re-analysis of the deposited data

Results flagged for a closer look

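The effect of A-DEP differed between mice with and without OVA for 3 genes, by a direct limma test of the difference. The eotaxin gene Ccl11, which recruits eosinophils, had 5.58, 5.65 and 5.07 log2 intensity after A-DEP with OVA and 4.17, 4.25 and 4.37 after OVA, against 4.40, 4.50 and 4.24 after A-DEP alone and 4.45, 4.50 and 4.62 after saline. The difference of the effects was 1.32 ± 0.19 (adjusted p = 0.00543), and Ccl11 was dim in A-DEP alone and in saline. It lost this call with heart and fat levels as covariates. Bambi, a decoy receptor of the transforming growth factor beta family, had 6.68, 6.67 and 6.70 after A-DEP with OVA and 7.19, 7.24 and 7.35 after OVA, against 7.09, 7.21 and 7.01 after A-DEP alone and 6.96, 6.96 and 6.80 after saline, a difference of the effects of -0.78 (adjusted p = 0.0480). For Timm10b, whose values are given above, it was -0.80 (adjusted p = 0.0496). Bambi and Timm10b lost their calls in most fits that left out 1 array.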

How the results depend on the processing

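The count of 205 genes in A-DEP against saline moved with several choices. It was 718 with array weights, which gave saline replicates 1 and 2 weights of 0.496 and 0.457 and saline replicate 3 a weight of 2.22, 130 with the second brightest probe set of each gene, 111 with only the compared groups in the fit and 3 with heart and fat levels as covariates. With 1 array left out it lay between 8 and 274, and the calls among list members, 84 with all arrays, between 6 and 87. With only the compared groups 97 genes were higher and 14 lower. A-DEP with OVA against OVA gave 85 genes, 130 with RNA quality covariates, 313 with array weights and 168 with heart and fat covariates, and 18 to 97 with 1 array left out, the fewest without OVA replicate 2. The difference of the effects gave 3 genes, 1 with all probe sets, with the second probe set or with centring on the 75th percentile, 11 with RNA quality covariates, 51 with array weights, 0 with heart and fat covariates, and 1 to 19 with 1 array left out. Vnn1, the 1 gene between A-DEP and N-DEP, gave 0 with RNA quality covariates and with only the compared groups, and 0 to 1 with 1 array left out. The cause of these moves was not tested. Of the 242 genes chosen by the naming rules, 1 turned its sign, Pdia6, at -0.052 with the second probe set. Of the genes named after their values were seen, Txn1 (-0.04) and Psmb1 (-0.08) also turned with that probe set. The differences between 3' and 5' control probe sets, a measure of RNA quality, were -0.11 for Gapdh and -0.11 for Actb (exact permutation p = 0.7 and 0.4), and saline replicate 1 had the highest of each. The deviations of samples with the same replicate number had correlations of -0.12, 0.16 and -0.04 between A-DEP and saline. Between A-DEP with OVA and OVA they were -0.07, -0.06 and 0.28. The numbers were taken to name samples only, and whether they mark a shared batch was not tested. With the replicate number as a block the counts were 236 for A-DEP against saline, 97 with OVA, 4 for the difference of the effects, 1 against N-DEP and 0 against C-DEP. Signal over background limits what can be said of dim genes.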

Other observations

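Families that the lists leave out were looked at by gene symbol after the values were seen, so they carry no test. Over all genes 1.16% rose, and 5824 of 12393 differences were positive. All 17 measured ATP synthase subunits had a positive difference between A-DEP and saline, with a median of 0.28, and 1 rose. Of 39 subunits of mitochondrial complex I, 35 were positive with a median of 0.20, and 3 rose, Ndufa4, Ndufab1 and Ndufs4. Of 38 proteasome subunits, 34 were positive with a median of 0.14, and Psmb1, Psmb6 and Psmd13 rose. Cytosolic ribosomal proteins had a median of 0.14 and mitochondrial ribosomal proteins one of 0.16. Of these, 0 of 49 and 1 of 74 rose, which is near the 1.16% of all genes. In the machinery that moves and glycosylates proteins in the endoplasmic reticulum, 17 of 20 were positive, and Rpn2, Sec61b and Ssr4 rose. Other probe sets did not bear out several of these calls. They differed by 0.06 and -0.17 for Ndufab1, 0.04 and 0.02 for Ndufs4, and 0.03 and -0.03 for Ssr4. Those of Psmb1 differed by -0.08 and 0.07 and that of Psmd13 by 0.28, and none of these passed. With OVA the medians were 0.03 for ATP synthase, 0.04 for complex I and 0.06 for the proteasome.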
